A study of Mus musculus with 20 samples.

Results

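The genes described here encode 37 proteins of glucose breakdown in CD8+ T cells: sugar carriers, the enzymes of glycolysis, lactate dehydrogenase and lactate carriers, the pyruvate dehydrogenase complex with its kinases, and the pentose phosphate pathway. They were chosen by gene symbol with earlier results of these data known, and all 37 were among the 45777 symbols of the deposited table. Of these, 34 had at least 1 FPKM (fragments scaled by gene length and library size) in at least 5 of 20 libraries and were tested with 11794 genes in all. Slc16a3, Pfkm and Pfkfb4 did not reach that level and were described only. The cells were CD8+ T cells sorted on day 4 of treatment from MC38 tumours, a mouse colon carcinoma line engineered to overexpress human PD-L1. All hosts were C57BL/6 mice whose PD-1, PD-L1 and 4-1BB are the human forms (hPD-1/hPD-L1/h4-1BB), and treatment began at a mean tumour volume of 150 to 200 mm3. The 4 groups had 5 libraries each. Control is labelled as such with no agent named, Pembrolizumab received an antibody that blocks PD-1, ABL503 an antibody that binds both PD-L1 and 4-1BB, and Combination both agents. Nothing in the labels states that the 5 libraries of a group were separate mice, so p-values measure only the spread between these samples.

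Glycolysis splits glucose into pyruvate in the cytosol and yields ATP and NADH without oxygen. Lactate dehydrogenase turns pyruvate into lactate and regenerates NAD+, whereas pyruvate dehydrogenase sends pyruvate into the mitochondrial citric acid cycle. The pentose phosphate pathway branches off at glucose 6-phosphate and supplies NADPH and ribose for nucleotides. Activated CD8+ T cells are known for high glycolysis with lactate release, and many of the enzymes can be induced by the transcription factors HIF-1 and Myc.

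Column sums of the table ran from 575918 to 654333 FPKM, and the read depth of the libraries is unknown. Each library's highest correlation with another lay between 0.967 and 0.977, and Control 1 had the lowest of these and, with ABL503 3, the lowest weight when libraries were weighted by their fit. All 8 listed CD8 T-cell markers passed the filter, and their summed level ran from 4503 to 7615 FPKM over the 20 libraries. A sum does not show each marker in each library. The 10 listed markers of dendritic and other antigen-presenting cells differed between groups. They summed to 139.8 to 454 FPKM in Control, 44.8 to 159.8 in Pembrolizumab, 114 to 287 in ABL503 and 39.2 to 68.0 in Combination. Flt3, Clec9a and Ciita of that list were under 1 FPKM in every library. Against Control, 4 of the 7 tested markers were lower in Combination (Cd74, H2-Aa, H2-Ab1 and H2-Eb1) and 1 was higher (Zbtb46). From the other marker lists, Ighm and Epcam were lower in Combination than in Control, and Ccr2, Klre1 and the CD8 marker Cd8a were higher. In Pembrolizumab against Control, Cd74 was lower and Xcr1, Ccr2 and Klre1 were higher. In Combination against ABL503, Cd74, H2-Aa, Ighm and Epcam were lower and Ccr2 was higher. Cd74 and Zbtb46 were higher in ABL503 than in Pembrolizumab, and Zbtb46 was higher in Combination than in Pembrolizumab. The 6 epithelial and tumour-cell markers summed to 7.44 to 12.9 FPKM in Control and 3.53 to 7.74 in Combination. In these bulk samples fewer cells of a type and less RNA per cell cannot be told apart, and the part of other cells in the results was not tested.

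The members that rose with treatment lay mostly at the middle and lower steps of glycolysis, where most of the genes were abundant. Members called in Combination against Control had a median level of 134 FPKM, and those not called 12.3 FPKM. Changes of low members were less detectable. A gene was called at a Benjamini-Hochberg adjusted p under 0.05 over all 11794 genes in limma, and a change is a difference of log2(FPKM + 1), a scale on which low genes appear to change less than they did. In Pembrolizumab against Control, 9 members rose and Bpgm fell, where 5.55% of all tested genes were called (2.77% higher and 2.78% lower), against 29.4% of members. In ABL503 against Control, 2 members rose, Slc2a3 and Pgk1, beside 0.619% of all genes called and 0.585% higher. Both calls were lost without ABL503 1, with adjusted p values of 0.0974 for Slc2a3 and 0.104 for Pgk1. Leaving out 1 library at a time, the Slc2a3 call was kept without Control 5 or ABL503 2 and lost without any of the other 8, and the Pgk1 call was kept without Control 5 and lost without any of the other 9. In Combination against Control, 14 members rose and Bpgm fell, beside 12.6% of all genes (6.34% higher and 6.24% lower), against 44.1% of members. The median change of the 34 members was 0.19, 0.11 and 0.35 on the log2 scale in these comparisons, while that of all tested genes was -0.03, -0.01 and -0.04. Since the members were chosen with earlier results of these data known, their shares and medians beside all genes are descriptions and no test of the set. All 5 treated libraries lay above all 5 Control libraries for 6 members in Pembrolizumab (2.71% of all genes), 6 in ABL503 (1.70%) and 12 in Combination (4.42%), and below them for 2 in Pembrolizumab (3.41%), Bpgm and Pdha1. All 3 comparisons share the same 5 Control libraries, so their values are set side by side and not as repeats of each other.

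**Figure D1:**
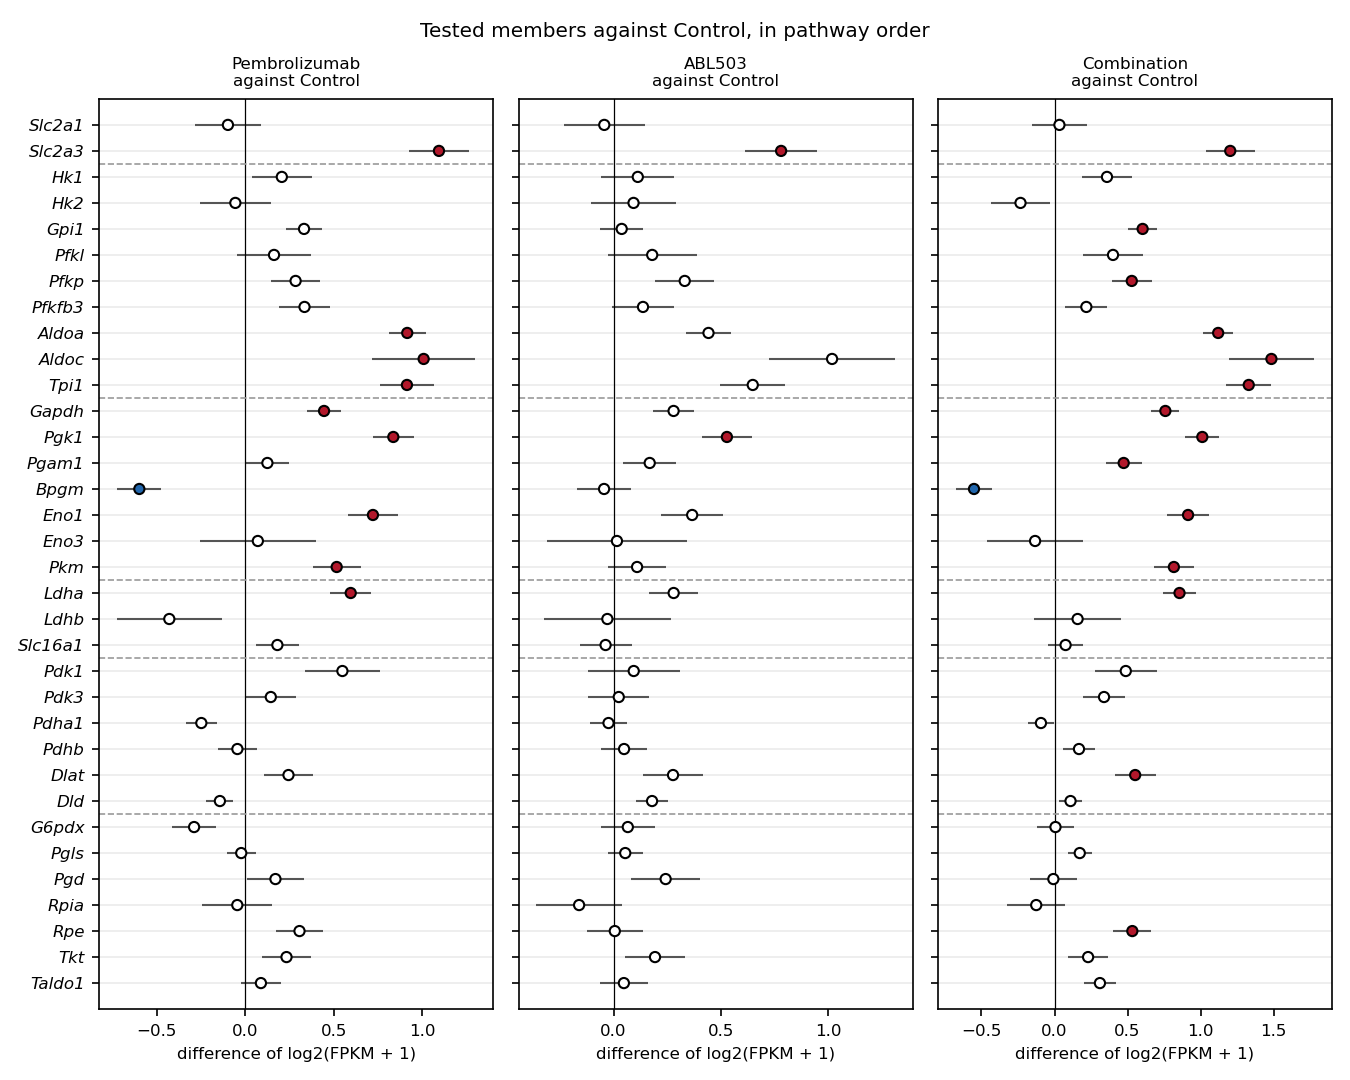
Difference of log2(FPKM + 1) from Control (x axis) for the 34 tested members (y axis) in Pembrolizumab, ABL503 and Combination, with standard errors as bars and filled points for genes past an adjusted p of 0.05. Of the members, 9, 2 and 14 were higher, and Bpgm alone was lower, in Pembrolizumab and in Combination.

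Of the sugar carriers, Slc2a3 rose in every treated group and Slc2a1 in none. Slc2a3 encodes a high-affinity glucose transporter, and Slc2a1 the glucose transporter most often named in activated T cells. Slc2a3 was listed at 6.14, 6.56, 7.43, 6.28 and 10.3 FPKM in Control, 15.7, 14.3, 15.98, 20.9 and 16.3 in Pembrolizumab, 16.5, 10.3, 13.4, 12.9 and 13.2 in ABL503 and 14.4, 20.4, 12.7, 19.5 and 25.1 in Combination. These values, like those of the genes that follow, are in the order of the library numbers. Every treated library lay above every Control library for Slc2a3, although ABL503 2 exceeded Control 5 only in the second decimal. The change from Control was 1.09 (SE 0.17, adjusted p = 0.000906) in Pembrolizumab, 0.78 (SE 0.17, adjusted p = 0.0335) in ABL503 and 1.20 (SE 0.17, adjusted p = 0.00012) in Combination. Slc2a1 was listed at 24.1, 13.1, 20.98, 17.2 and 17.4 FPKM in Control, 13.4, 15.6, 14.9, 25.6 and 17.5 in Pembrolizumab, 15.4, 16.4, 23.6, 18.1 and 15.8 in ABL503 and 18.99, 16.7, 29.3, 15.5 and 15.7 in Combination. The 4 groups overlapped for Slc2a1, and its largest change from Control was -0.10 (SE 0.19, adjusted p = 0.835) in Pembrolizumab. Slc2a1 made up 71.3% of the summed level of the 2 carriers in Control, against 50.6% in Pembrolizumab, 57.3% in ABL503 and 50.9% in Combination.

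The first steps of glycolysis trap glucose in the cell and commit it, and the members for these steps were mixed. Hexokinase phosphorylates glucose. Hk2 was listed at 1.48, 2.86, 3.63, 3.92 and 2.91 FPKM in Control, 2.73, 2.29, 1.63, 4.29 and 3.12 in Pembrolizumab, 2.39, 2.94, 4.24, 2.76 and 3.48 in ABL503 and 2.19, 1.58, 2.89, 2.81 and 2.13 in Combination. The groups overlapped for Hk2, and neither Hk2 nor Hk1, which ran from 3.73 to 10.2 FPKM, was called in any comparison. Gpi1 converts glucose 6-phosphate into fructose 6-phosphate. Gpi1 was listed at 124, 94.3, 103, 113 and 124 FPKM in Control, 147, 144, 119.5, 137 and 154 in Pembrolizumab, 121, 100.4, 132, 114 and 105 in ABL503 and 155, 160.4, 187, 152 and 194 in Combination. All 5 Combination libraries lay above all Control and all ABL503 libraries for Gpi1, whereas Pembrolizumab overlapped with Combination. Gpi1 rose in Combination by 0.60 (SE 0.10, adjusted p = 0.00078) over Control and by 0.56 (SE 0.10, adjusted p = 0.00384) over ABL503, and its difference from Control was 0.33 (SE 0.10, adjusted p = 0.0582) in Pembrolizumab.

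Phosphofructokinase makes the committed step, and Pfkp was its leading form. Pfkp was listed at 40.9, 46.6, 32.7, 40.1 and 30.97 FPKM in Control, 43.96, 49.3, 46.5, 42.9 and 49.2 in Pembrolizumab, 47.05, 48.9, 64.8, 47.7 and 35.3 in ABL503 and 44.2, 60.9, 65.3, 51.5 and 55.6 in Combination. The groups overlapped for Pfkp, with the lowest Combination library below the highest Control library, and the one call was a rise of 0.53 (SE 0.14, adjusted p = 0.0161) in Combination over Control. Pfkl, the liver-type subunit, ran from 5.40 to 14.7 FPKM and was called nowhere. Pfkm, the muscle-type subunit, reached 1 FPKM in 1 library only, with group means from 0.212 in Control to 0.628 in Combination. Pfkfb3 and Pfkfb4 make and remove fructose 2,6-bisphosphate, an activator of phosphofructokinase. Pfkfb3 ran from 0.844 to 2.73 FPKM with no call, and Pfkfb4 stayed under 1 FPKM in all 20 libraries.

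From aldolase on, each step had a gene that rose in Combination over Control. Aldolase cleaves fructose 1,6-bisphosphate, triosephosphate isomerase (Tpi1) interconverts the products, Gapdh and Pgk1 yield NADH and ATP, and Pgam1, enolase and pyruvate kinase lead on to pyruvate. HIF-1 and Myc bind short cores that can be searched for in promoters. The promoters of the 4 members with the smallest p in Combination against Control that had an entry are shown. They come from RefSeq on GRCm38.p6, which held promoters for 36 of the 37 members (not Slc2a3), cover 250 bases before to 50 after a transcript start, and run 5′ to 3′ along the gene. Capitals mark ACGTG or GCGTG, the hypoxia-response core, or its reverse complement. Aldoa is read from the minus strand at chr7:126799205-126799504, and this is the second of its 3 listed starts, chosen after its match was seen. Pgk1 is read from the plus strand at chrX:106186850-106187149, Tpi1 from the minus strand at chr6:124814109-124814408 and Gapdh from the minus strand at chr6:125165724-125166023.
Aldoa: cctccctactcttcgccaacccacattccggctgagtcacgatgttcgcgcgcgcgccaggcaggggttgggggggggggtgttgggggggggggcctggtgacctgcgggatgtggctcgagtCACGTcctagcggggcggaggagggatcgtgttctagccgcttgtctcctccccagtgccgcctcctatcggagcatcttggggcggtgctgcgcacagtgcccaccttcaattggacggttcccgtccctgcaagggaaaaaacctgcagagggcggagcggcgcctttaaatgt
Pgk1: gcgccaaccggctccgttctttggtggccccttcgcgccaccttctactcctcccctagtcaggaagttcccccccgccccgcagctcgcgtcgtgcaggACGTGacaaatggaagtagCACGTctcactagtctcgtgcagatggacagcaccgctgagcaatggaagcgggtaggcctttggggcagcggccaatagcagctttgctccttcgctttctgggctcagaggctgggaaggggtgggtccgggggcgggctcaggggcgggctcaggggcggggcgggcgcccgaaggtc
Tpi1: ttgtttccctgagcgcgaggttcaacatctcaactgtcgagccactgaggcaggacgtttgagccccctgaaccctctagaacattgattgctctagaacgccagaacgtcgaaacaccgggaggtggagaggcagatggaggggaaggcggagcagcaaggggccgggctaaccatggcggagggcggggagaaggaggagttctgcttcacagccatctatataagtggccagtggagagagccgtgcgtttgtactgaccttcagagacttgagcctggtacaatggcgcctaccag
Gapdh: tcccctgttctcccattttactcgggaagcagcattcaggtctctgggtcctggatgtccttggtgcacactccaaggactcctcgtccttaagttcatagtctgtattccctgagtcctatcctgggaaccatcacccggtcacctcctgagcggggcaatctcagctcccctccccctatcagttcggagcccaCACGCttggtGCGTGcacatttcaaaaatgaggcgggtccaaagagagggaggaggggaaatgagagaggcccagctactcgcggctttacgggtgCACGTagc
The Aldoa window held 1 ACGTG on the reverse strand, starting 126 bases upstream of the transcript start. The window of the first listed Aldoa start held neither core, and that of the third overlaps the printed window and holds the same match. The Pgk1 window held ACGTG at 150 and, reversed, at 131 bases upstream. The Gapdh window held GCGTG at 44 and, reversed, at 54 bases upstream, and ACGTG reversed at 43 bases downstream. The Tpi1 window held neither core. CACGTG, the E-box that Myc binds and that contains ACGTG, was in none of these 4 windows.

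Searched on both strands, ACGTG or GCGTG was in at least 1 window of 30 of the 36 members with an entry (83.3%) and of 46.7% of all 27025 genes with an entry. For ACGTG alone the shares were 47.2% and 21.8%, for GCGTG 69.4% and 35.2%, and for CACGTG 11.1% and 8.09%. Among the members, either core was in 9 of the 13 that rose in Combination against Control (69.2%) and in 21 of the other 23 (91.3%). The 27025 genes were not limited to those tested here, and they had 32851 windows, beside 50 windows for the 36 members. The shares are thus not of like sets, and whether members hold more cores than genes of similar level was not tested. A match is a description of these letters and not a binding site.

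Aldoa, the main aldolase, was among the strongest changes of the whole table, ranking 2 of 11794 by p in Combination against Control. Aldoa was listed at 437, 442, 513, 539 and 601 FPKM in Control, 1123, 978, 862, 824 and 986 in Pembrolizumab, 784, 586, 745, 655 and 666 in ABL503 and 1029.9, 1117, 1046, 1049.6 and 1237 in Combination. All Pembrolizumab and Combination libraries lay above all Control libraries, and ABL503 lay between, overlapping Control by its lowest library. Aldoa rose over Control by 0.91 (SE 0.10, adjusted p = 4.3e-05) in Pembrolizumab and by 1.12 (SE 0.10, adjusted p = 4.25e-06) in Combination, and its difference in ABL503 was 0.44 (SE 0.10, adjusted p = 0.0565). Aldoc was listed at 5.58, 1.43, 6.74, 2.71 and 5.96 FPKM in Control, 11.7, 8.901, 5.302, 8.66 and 12.7 in Pembrolizumab, 8.32, 7.58, 12.8, 7.28 and 10.9 in ABL503 and 8.94, 12.4, 10.4, 15.1 and 21.3 in Combination. Aldoc, the second aldolase, lay above every Control library in all ABL503 and Combination libraries but not in Pembrolizumab 3. It rose in Pembrolizumab by 1.01 (SE 0.29, adjusted p = 0.0462) and in Combination by 1.48 (SE 0.29, adjusted p = 0.00282), and differed by 1.02 (SE 0.29, adjusted p = 0.145) in ABL503. The Aldoc call in Pembrolizumab was kept without Control 3, Control 5 or Pembrolizumab 3 and lost without any of the other 7 libraries compared, with an adjusted p of up to 0.115 without Control 2.

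Tpi1 was listed at 223, 190.5, 238, 209 and 263 FPKM in Control, 579, 508, 345, 317 and 415 in Pembrolizumab, 409.7, 305, 405, 338 and 311 in ABL503 and 497, 567, 487, 551 and 746 in Combination. Every treated library lay above every Control library for Tpi1, and every Combination library above every ABL503 library. Tpi1 rose by 0.91 (SE 0.15, adjusted p = 0.00146) in Pembrolizumab and by 1.33 (SE 0.15, adjusted p = 2.83e-05) in Combination, and its difference in ABL503 was 0.65 (SE 0.15, adjusted p = 0.057). Gapdh had the highest mean level of the members, 1098 FPKM over the 20 libraries. Gapdh was listed at 803, 816, 858, 845 and 829 FPKM in Control, 1353, 1224, 1118, 851 and 1171 in Pembrolizumab, 1121, 876, 1059.7, 993 and 1008 in ABL503 and 1475, 1384, 1346, 1312 and 1518 in Combination. Control was narrow for Gapdh, Pembrolizumab 4 lay inside it, and all Combination libraries exceeded 4 of the 5 Pembrolizumab libraries. Gapdh rose by 0.44 (SE 0.10, adjusted p = 0.00993) in Pembrolizumab and by 0.76 (SE 0.10, adjusted p = 4.69e-05) in Combination. Its difference in ABL503 was 0.28 (SE 0.10, adjusted p = 0.251), with all ABL503 libraries above all Control libraries. The Pembrolizumab call for Gapdh was lost when limma was fitted to only the groups compared (adjusted p = 0.0502). Gapdh is often used as a reference gene, but its level is given here in FPKM like that of the other members.

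Pgk1 was listed at 170.4, 188, 194, 170.4 and 208 FPKM in Control, 398, 356, 281, 290.1 and 350.4 in Pembrolizumab, 329, 258, 257, 254 and 251 in ABL503 and 354, 350.4, 326, 373 and 492 in Combination. Every treated library exceeded every Control library for Pgk1, and ABL503 1 stood well above the other 4 of its group. Pgk1 rose by 0.84 (SE 0.12, adjusted p = 0.000361) in Pembrolizumab, 0.53 (SE 0.12, adjusted p = 0.0361) in ABL503 and 1.01 (SE 0.12, adjusted p = 2.83e-05) in Combination. Eno1 was listed at 658, 677, 849, 749 and 805 FPKM in Control, 1594, 1472, 1093, 864 and 1254 in Pembrolizumab, 1157, 803, 1006, 994 and 875 in ABL503 and 1329.9, 1484, 1223, 1279 and 1757 in Combination. For Eno1, the main enolase, all Pembrolizumab and Combination libraries lay above Control, and ABL503 overlapped it. Eno1 rose by 0.72 (SE 0.14, adjusted p = 0.00589) in Pembrolizumab and by 0.91 (SE 0.14, adjusted p = 0.000411) in Combination. Pgk1, Eno1 and Pgam1 have near-identical copies in the table (Pgk1-rs7, Eno1b and Pgam1-ps2), so reads could have been divided between them and these levels are uncertain.

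Pkm was listed at 286, 209, 232, 264 and 242 FPKM in Control, 395, 407, 311, 277 and 384 in Pembrolizumab, 319, 220.4, 312, 244 and 243 in ABL503 and 482, 380.3, 446, 349 and 529.9 in Combination. Pkm encodes pyruvate kinase, the ATP-yielding last step. Combination exceeded every Control and every ABL503 library for Pkm, and Pembrolizumab 4 lay within Control. Pkm rose by 0.52 (SE 0.14, adjusted p = 0.03) in Pembrolizumab and by 0.82 (SE 0.14, adjusted p = 0.000736) in Combination, and its difference was 0.11 (SE 0.14, adjusted p = 0.83) in ABL503. The Pembrolizumab call for Pkm was lost without Control 2 or 3 or Pembrolizumab 1, 2 or 5, with an adjusted p of up to 0.0780 without Pembrolizumab 1. The group means of Pgam1 were 96.6 ± 10.3, 107 ± 22.1, 109 ± 14.3 and 134 ± 12.5 FPKM (SD, n = 5) in Control, Pembrolizumab, ABL503 and Combination, and the one call was a rise in Combination over Control of 0.47 (SE 0.12, adjusted p = 0.0156). The Pgam1 difference of Combination from Pembrolizumab (adjusted p = 0.223) or ABL503 (adjusted p = 0.159) did not pass. Eno3, the muscle enolase, ran from 1.88 to 9.01 FPKM with no call.

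**Figure D2:**
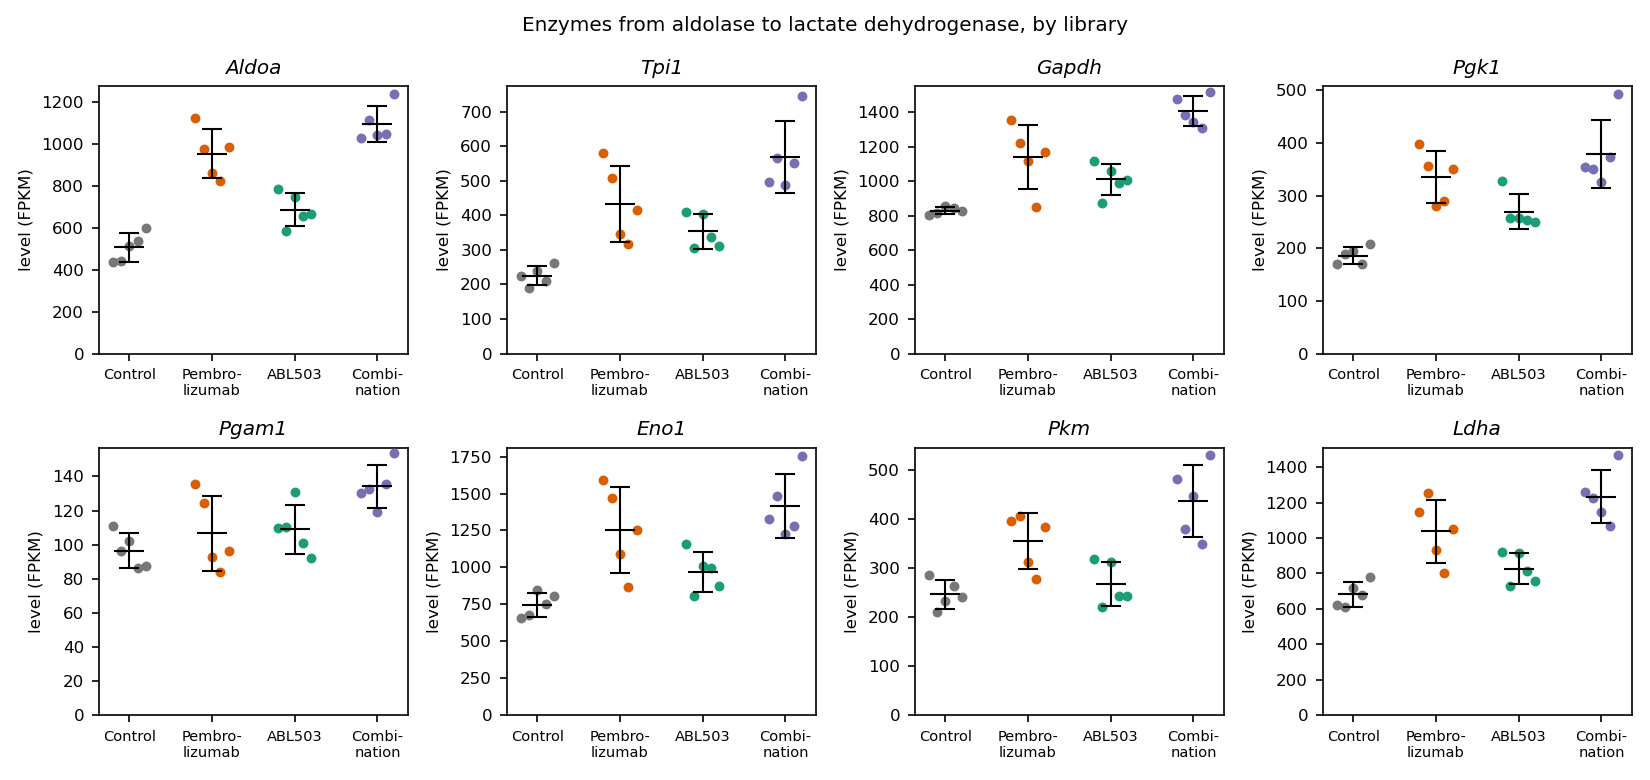
Level in FPKM (y axis, from 0) of 8 genes from aldolase to lactate dehydrogenase in each library of the 4 groups (x axis), with the group mean and SD. Combination 5 was the highest library of its group in all 8 panels, and the Combination points lay above all Control points in each panel.

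Bpgm was the only member that fell against Control, and its per-library values are given although they were chosen after they were seen. It makes 2,3-bisphosphoglycerate and so diverts the substrate of Pgk1, a step best known from red cells. Bpgm was listed at 46.5, 38.7, 39.6, 41.96 and 27.8 FPKM in Control, 23.95, 24.7, 27.4, 23.3 and 25.8 in Pembrolizumab, 31.9, 40.8, 37.7, 40.1 and 36.1 in ABL503 and 26.7, 22.1, 33.6, 22.7 and 25.7 in Combination. All Pembrolizumab libraries lay below all Control and all ABL503 libraries, whereas Control 5 lay within the Combination range. Bpgm changed by -0.60 (SE 0.12, adjusted p = 0.00734) in Pembrolizumab and by -0.55 (SE 0.12, adjusted p = 0.007) in Combination, and the difference was -0.04 (SE 0.12, adjusted p = 0.933) in ABL503. The 5 listed red-cell markers summed to at most 1.24 FPKM in any library.

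Lactate dehydrogenase A rose, while Slc16a1, the one lactate carrier tested, did not pass the test. Ldha was listed at 621, 609, 717, 677 and 780.5 FPKM in Control, 1144, 1253, 935, 801 and 1053 in Pembrolizumab, 922, 729.7, 917, 811 and 757 in ABL503 and 1260.5, 1228, 1145, 1069 and 1468 in Combination. All Pembrolizumab and Combination libraries lay above all Control libraries for Ldha, and ABL503 overlapped Control. Ldha rose by 0.60 (SE 0.11, adjusted p = 0.00523) in Pembrolizumab and by 0.85 (SE 0.11, adjusted p = 8.54e-05) in Combination, with 0.28 (SE 0.11, adjusted p = 0.354) in ABL503. Ldhb, which favours the reverse reaction, ran from 1.47 to 9.70 FPKM with no call. Slc16a1 carries lactate and pyruvate, ran from 11.9 to 20.4 FPKM and was called nowhere. Slc16a3 was listed at 0.156, 0.129, 0.601, 0.903 and 0.591 FPKM in Control, 1.27, 0.198, 0.375, 0.552 and 0.502 in Pembrolizumab, 0.657, 0.391, 0.214, 0.212 and 0.147 in ABL503 and 0.526, 0.847, 0.382, 0.517 and 1.47 in Combination. Slc16a3, a lactate exporter, was under 1 FPKM in 18 of the 20 libraries, and the groups overlapped.

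Of the 6 members of the pyruvate dehydrogenase complex and its kinases, 1 was called in Combination against Control, where 12.6% of all genes were, and 0 in Pembrolizumab (5.55%) or ABL503 (0.619%) against Control. Pdk1 encodes a kinase that switches the complex off. Pdk1 was listed at 2.6996, 1.78, 2.403, 1.32 and 0.8001 FPKM in Control, 3.72, 2.55, 2.27, 3.89 and 2.65 in Pembrolizumab, 2.58, 2.39, 1.87, 1.36 and 1.48 in ABL503 and 1.64, 2.12, 3.02, 3.79 and 4.01 in Combination. Pembrolizumab and Combination held the higher Pdk1 values, but the groups overlapped and the differences from Control were 0.55 (SE 0.21, adjusted p = 0.142) in Pembrolizumab and 0.49 (SE 0.21, adjusted p = 0.138) in Combination. Pdk3, the more abundant kinase here, ran from 19.4 to 36.98 FPKM with no call. Dlat was listed at 3.29, 3.08, 2.12, 2.56 and 2.71 FPKM in Control, 3.91, 2.97, 3.67, 3.49 and 3.11 in Pembrolizumab, 3.33, 3.62, 4.94, 3.79 and 2.31 in ABL503 and 4.58, 4.52, 4.56, 3.69 and 5.09 in Combination. Dlat, the acetyltransferase core of the complex, was above all Control libraries in all Combination libraries and rose by 0.55 (SE 0.14, adjusted p = 0.0143). Dld was listed at 41.5, 38.7, 43.7, 44.5 and 41.1 FPKM in Control, 36.9, 40.04, 41.6, 34.4 and 36.5 in Pembrolizumab, 45.6, 50.3, 46.3, 48.6 and 47.1 in ABL503 and 40.7, 42.8, 48.2, 44.7 and 50.5 in Combination. For Dld, the dihydrolipoamide dehydrogenase that other complexes share, every ABL503 library lay above every Pembrolizumab and every Control library. The Dld call was a difference of 0.32 (SE 0.08, adjusted p = 0.0395) between ABL503 and Pembrolizumab. Pdha1 and Pdhb, the subunits of the decarboxylase, were not called, and all Pdha1 values of Pembrolizumab lay below those of Control at -0.25 (SE 0.09, adjusted p = 0.105).

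Of the 7 pentose phosphate members, Rpe was the only one called, in Combination against Control (12.6% of all genes) and against ABL503 (4.53%). G6pdx encodes the enzyme of the first, rate-limiting step. G6pdx was listed at 11.1, 13.1, 12.8, 13.9 and 12.5 FPKM in Control, 10.4, 11.6, 10.5, 8.21 and 10.3 in Pembrolizumab, 13.1, 10.8, 15.6, 13.8 and 13.7 in ABL503 and 17.8, 12.04, 12.2, 11.1 and 11.4 in Combination. Pembrolizumab held the lowest G6pdx value and Combination 1 the highest, and the change from Control was -0.29 (SE 0.12, adjusted p = 0.19) in Pembrolizumab and 0.01 (SE 0.12, adjusted p = 0.981) in Combination. Rpe was listed at 10.4, 7.72, 7.46, 9.15 and 7.53 FPKM in Control, 10.9, 11.5, 10.3, 11.2 and 9.17 in Pembrolizumab, 7.1996, 9.77, 7.57, 8.54 and 9.26 in ABL503 and 11.1, 15.1, 9.32, 13.1 and 15.2 in Combination. Rpe, the ribulose 5-phosphate epimerase of the nonoxidative branch, had the highest values in Combination, overlapping Control by 1 library, and rose by 0.53 (SE 0.13, adjusted p = 0.0118) over Control and by 0.53 (SE 0.13, adjusted p = 0.0247) over ABL503. Taldo1 had group means of 113 ± 19.4, 119 ± 14.2, 116 ± 11.4 and 139 ± 11.8 FPKM (SD, n = 5), and its difference in Combination was 0.31 (SE 0.11, adjusted p = 0.0714). Pgls, Pgd, Rpia and Tkt were called nowhere, with Pgls from 71.6 to 102 FPKM and Rpia from 0.643 to 2.64 FPKM.

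The 8 genes Aldoa, Tpi1, Gapdh, Pgk1, Pgam1, Eno1, Pkm and Ldha made up 0.575% ± 0.0383 of all summed FPKM in Control (SD, n = 5), against 0.887% ± 0.143 in Pembrolizumab, 0.735% ± 0.0858 in ABL503 and 1.06% ± 0.111 in Combination. The 7 pentose phosphate genes made up 0.0396% ± 0.00246, 0.0397% ± 0.00233, 0.0416% ± 0.00459 and 0.0455% ± 0.00298 in the same order. All treated libraries lay above all Control libraries in the share of the 8 genes, whereas the pentose phosphate shares overlapped. Each of the 8 genes was itself called higher in Combination against Control, and Aldoc, Bpgm, Eno3 and Ldhb were left out of the set. The share therefore restates the levels of these genes and gives no separate support. Combination 5 was the highest of its group for all 8 genes, ABL503 1 for 7 and Pembrolizumab 1 for 6, and Pembrolizumab 4 was the lowest of its group for 7 and ABL503 2 for 6. In Control the highest library was Control 5 for 4 genes and Control 1 and Control 3 for 2 each, and the lowest was spread over 3 libraries, as it was in Combination. The 15 members called in Combination against Control had a median mean level of 134 FPKM and the 19 not called one of 12.3 FPKM. Standard errors in that comparison were 0.10 to 0.15 for the 11 members with a mean of at least 100 FPKM and 0.14 to 0.33 for the 11 members under 10 FPKM, so a change of the same size was less detectable among the low members.

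**Figure D3:**
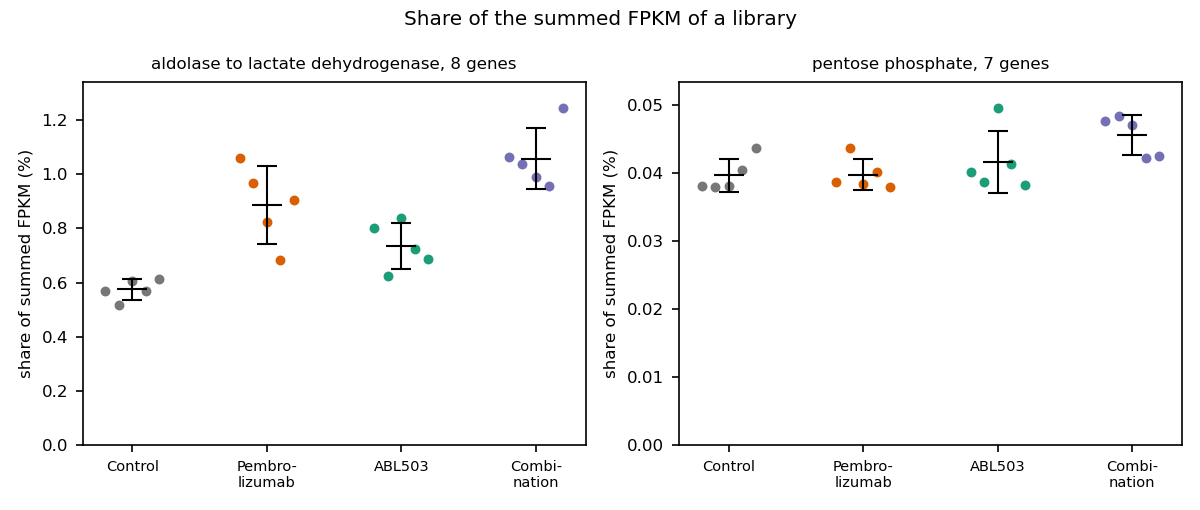
Share of each library's summed FPKM (y axis, percent, from 0) taken by 8 genes from aldolase to lactate dehydrogenase and by the 7 pentose phosphate genes, by group (x axis) with mean and SD. The 8-gene share was 0.575% ± 0.0383 in Control and 1.06% ± 0.111 in Combination, and each of the 8 genes was itself called higher in Combination against Control.

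Combination exceeded ABL503 in much of the chain. In Combination against ABL503, 9 members rose (Gpi1, Aldoa, Tpi1, Gapdh, Pgk1, Eno1, Pkm, Ldha and Rpe) and Bpgm fell, beside 4.53% of all genes (2.29% higher and 2.24% lower). The largest change was that of Pkm, 0.71 (SE 0.14, adjusted p = 0.00534), and Aldoa differed by 0.68 (SE 0.10, adjusted p = 0.0014). Bpgm differed by -0.51 (SE 0.12, adjusted p = 0.0235). In 7 members all 5 Combination libraries lay above all 5 ABL503 libraries, as did 3.19% of all genes. Without ABL503 4 the calls for Eno1, Pgk1, Bpgm and Rpe were lost and 6 were left. Eno1 was also lost without ABL503 2 (adjusted p = 0.0933), 3 or 5 or Combination 2 or 5, Pgk1 without ABL503 2 or 5 or Combination 5 (0.0538), Bpgm without ABL503 2 or Combination 2 (0.0664) or 4, and Rpe without ABL503 3 or Combination 2 (0.0709) or 5.

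No member was called between Combination and Pembrolizumab, where 0.161% of all genes were. At an unadjusted p under 0.05 the same limma fit gave 10 of the 34 members, beside 13.2% of all genes, and Dld had the lowest adjusted p of the members at 0.179. The members' median was 0.20 against 0.00 for all genes, and 26 of the 34 lay above 0 (76.5%), beside 50.6% of all genes. The members were measured in the same libraries, so this count is a description and no test. The 95% interval of the difference was -0.01 to 0.42 for Aldoa, 0.10 to 0.73 for Tpi1, 0.11 to 0.51 for Gapdh and -0.24 to 0.46 for Slc2a3 on the log2 scale. Missing the threshold does not show that the 2 groups were alike.

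ABL503 and Pembrolizumab differed in 3 members, beside 1.28% of all genes (0.865% higher and 0.415% lower in ABL503). Aldoa was lower in ABL503, at -0.47 (SE 0.10, adjusted p = 0.0278), while Bpgm, at 0.55 (SE 0.12, adjusted p = 0.0321), and Dld were higher. The groups did not overlap for any of these 3, as for 2.55% of all genes above and 1.18% below. All 3 calls were kept without ABL503 1 or Pembrolizumab 3, 1 was kept without ABL503 3, Pembrolizumab 2 or Pembrolizumab 4, and 0 were kept without any of the other 5. Without ABL503 2 the adjusted p was 0.0867 for Aldoa, 0.0867 for Bpgm and 0.104 for Dld. For Slc2a3, called over Control in both, the difference between the treatments was -0.31 (SE 0.17, adjusted p = 0.432).

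The interaction asks whether ABL503 added as much on top of pembrolizumab as it did alone. No member was called, beside 0.203% of all genes, and at an unadjusted p under 0.05 there were 2 of 34, beside 10.3% of all genes. These were Slc2a3, at -0.67 (SE 0.24, adjusted p = 0.29), and Pgk1, at -0.35 (SE 0.16, adjusted p = 0.47). Both values lie below 0, which on this scale means a Combination lower than the sum of the separate changes. Neither passed the adjusted threshold, and the share of members was below that of all genes. Slc2a3 and Pgk1 are also the 2 members called in ABL503 against Control, and the interaction uses the same libraries. No departure from the sum is therefore read from them. The median interaction was 0.04 for the members and 0.00 for all genes.

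**Figure D4:**
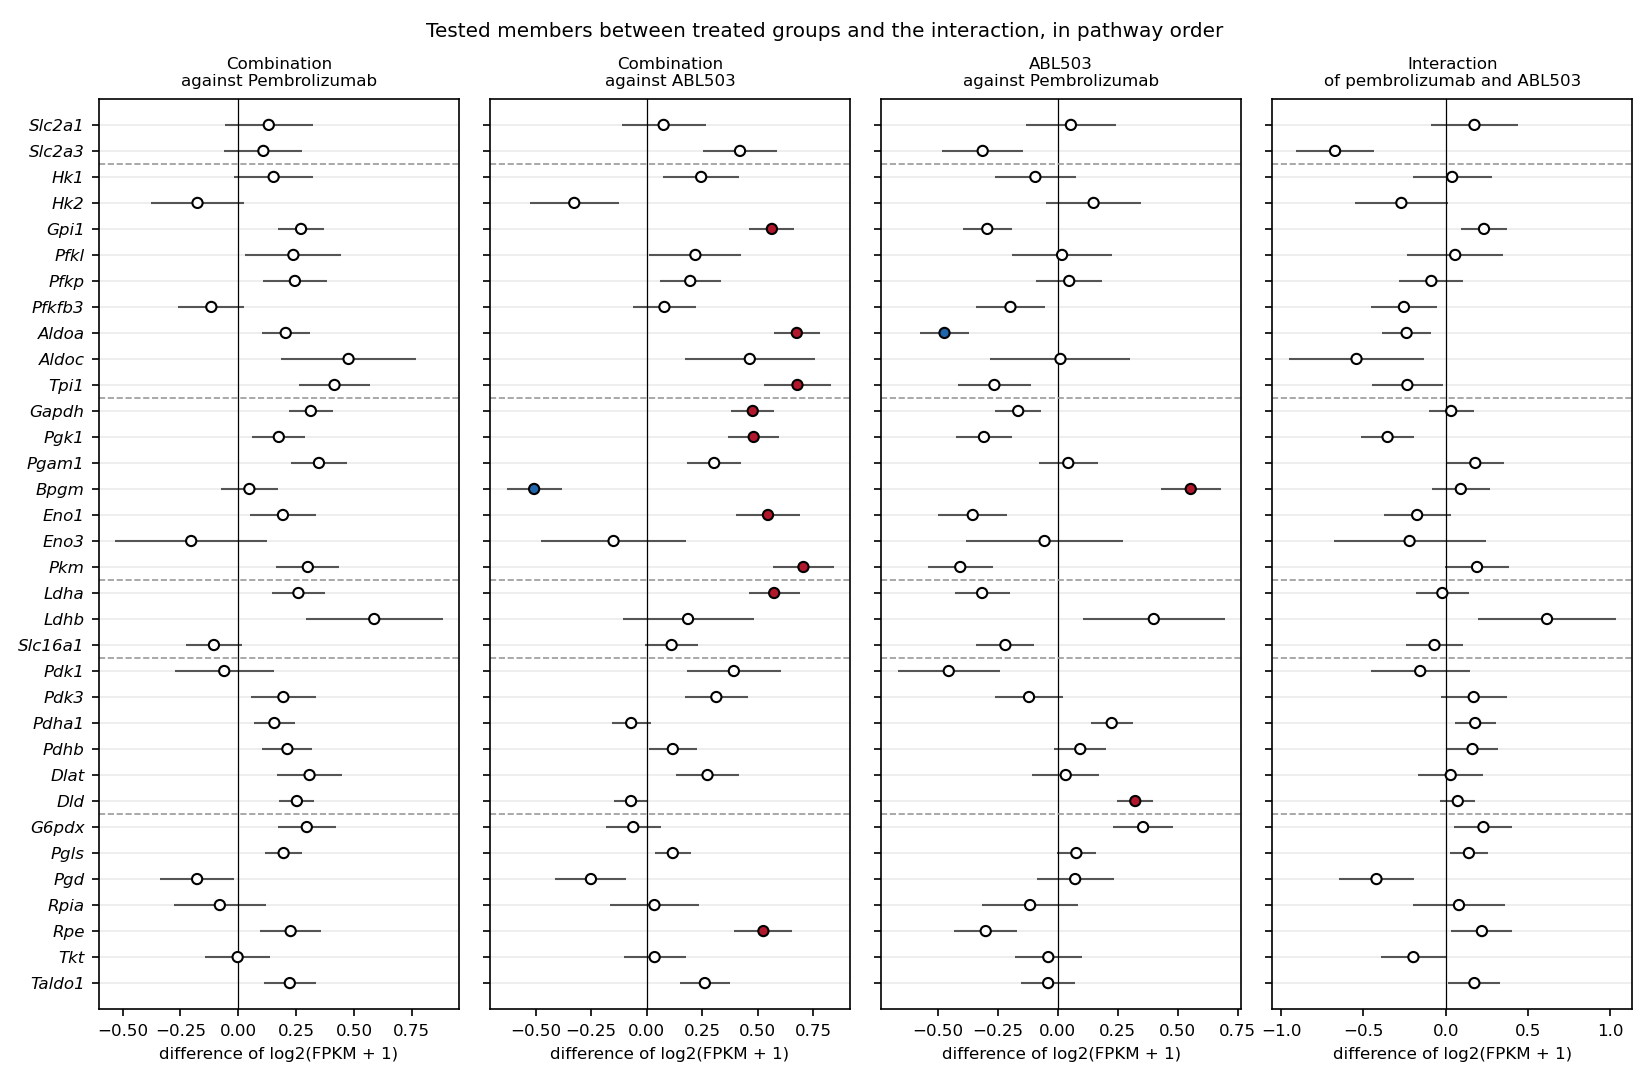
Difference of log2(FPKM + 1) (x axis) for the 34 tested members (y axis) between the treated groups and for the interaction, with standard errors as bars and filled points past an adjusted p of 0.05. There were 10 calls in Combination against ABL503, 3 in ABL503 against Pembrolizumab and 0 in each of the other 2 panels.

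Isoenzymes of the same step kept their order in the group means, and the sugar carriers came closest to even. Aldoa held 98.7% to 99.1% of the summed aldolase level by group, and Eno1 99.2% to 99.6% of that of Eno1 and Eno3. The mean log2 ratio of Ldha to Ldhb was 7.25 ± 0.43 in Control, against 8.42 ± 0.73 in Pembrolizumab, 7.59 ± 0.84 in ABL503 and 7.92 ± 0.55 in Combination (SD, n = 5). That of Slc2a1 to Slc2a3 was 1.34 ± 0.47, 0.03 ± 0.20, 0.43 ± 0.36 and 0.06 ± 0.75. The ratio of Hk1 to Hk2 was 1.01 ± 0.64, 1.33 ± 0.54, 1.01 ± 0.39 and 1.74 ± 0.22. These ratios are descriptions with no test.

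**Figure D5:**
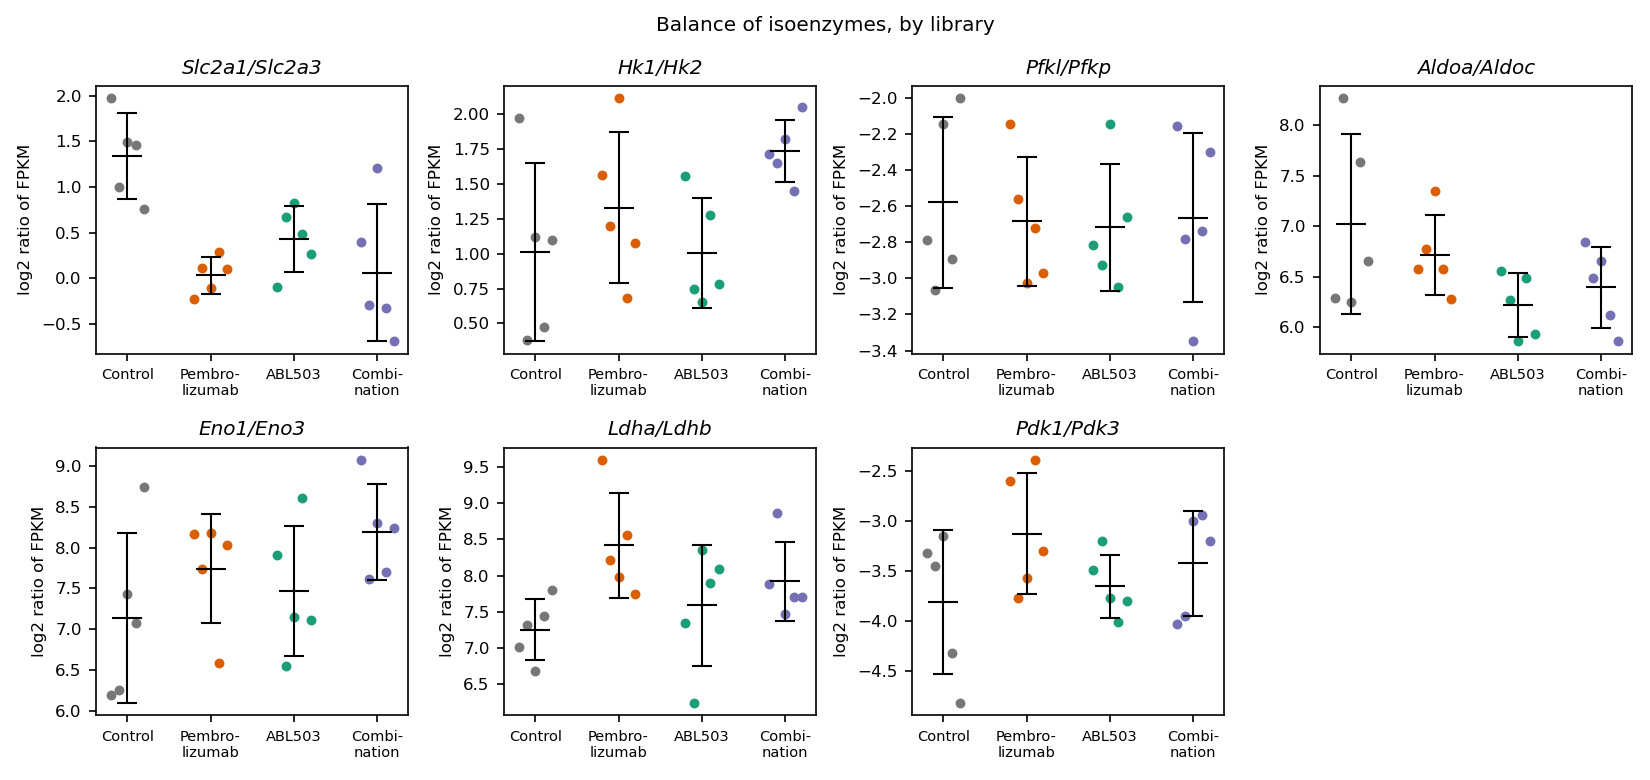
Log2 ratio of the FPKM of 2 genes of the same step (y axis) in each library by group (x axis), with mean and SD, for 7 pairs. The ratio of Slc2a1 to Slc2a3 had a mean of 1.34 in Control and 0.03 in Pembrolizumab, while Aldoa, Eno1 and Ldha exceeded their partners in every library.

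Of 54 other genes of sugar and pyruvate handling, 24 were tested. In Pembrolizumab against Control 2 rose and 2 fell (5.55% of all genes were called), in Combination against Control 3 rose and 2 fell (12.6%), and in ABL503 against Control 0 passed (0.619%). Bsg, the chaperone of the lactate carriers, rose by 0.45 in Pembrolizumab (adjusted p = 0.0125) and by 0.62 in Combination (adjusted p = 0.00055). Emb, a related chaperone, changed by -0.90 (adjusted p = 0.000248) and -0.77 (adjusted p = 0.000351). Gpd2, the mitochondrial glycerol 3-phosphate dehydrogenase that reoxidises cytosolic NADH, rose by 0.51 and 0.54, and Me2, a mitochondrial malic enzyme, changed by -0.51 and -0.40. Pgm2, a phosphoglucomutase, rose by 0.63 in Combination over Control and by 0.65 over ABL503, the one call of the list there. No gene of the list was called in the other 3 comparisons, and its median log2 change was 0.06, 0.02 and 0.01 against Control in Pembrolizumab, ABL503 and Combination.

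Of 21 regulators of the pathway, 18 were tested. Of these, 2 fell in Pembrolizumab against Control (5.55% of all genes were called), 1 rose and 1 fell in Combination against Control (12.6%), 1 rose and 3 fell in Combination against ABL503 (4.53%), and 1 was higher in ABL503 than in Pembrolizumab (1.28%), with 0 called in the other 3 comparisons. Hif1a, the oxygen-regulated subunit of HIF-1, stood at 87.7 ± 11.5, 79.1 ± 9.94, 86.6 ± 12.6 and 90.9 ± 6.37 FPKM (SD, n = 5) and was called in no comparison. Myc was lower in Combination than in ABL503 by a log2 change of -0.89 (adjusted p = 0.0333), and its difference from Control was -0.65 (adjusted p = 0.0733). Max, the partner of Myc, changed by -0.71 in Combination against Control (adjusted p = 0.00771) and by -0.76 against ABL503. Egln1, an oxygen sensor that marks HIF-1 for breakdown, rose by 0.46 (adjusted p = 0.0233) and 0.62 in the same comparisons. In Pembrolizumab against Control, Bhlhe40 and Rheb fell, with log2 changes of -0.40 and -0.31. Txnip, which restrains glucose uptake, was called nowhere. RNA levels are given here, and protein amounts and metabolic flux were not analysed here.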

How the data were processed

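RNA sequencing of sorted CD8+ T cells gave 20 libraries in 4 groups of 5, grouped by the treatment label. Libraries were prepared with SMART-Seq v4, per the labels' protocols. Alignment with HISAT2, quantification with StringTie and the builds GRCm38 and mm10 are named in the submitters' processing notes, without versions. The deposited values are taken as FPKM made by the authors; this unit is inferred, since the header names none. Read counts cannot be recovered from them, so precision rests on the spread between libraries.

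Genes with at least 1 FPKM in 5 libraries were kept (11794 of 45777). limma 3.58.1 in R 4.3.3 was fitted to log2(FPKM + 1) of all 20 libraries with 1 mean per group, a variance trend and 16 residual degrees of freedom. Tests were two-sided with Benjamini-Hochberg adjustment over all genes within each of 7 comparisons. Tables were handled with pandas 2.3.3 under Python 3.11.15 and figures drawn with matplotlib 3.10.9. The steps were tested on simulated data.

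The members and lists were chosen with earlier results of these data known. Per-library values are given for up to 4 called members per role by smallest p and for a fixed panel (Slc2a1, Hk2, Pfkp, Aldoa, Gapdh, Pgk1, Eno1, Pkm, Ldha, Slc16a3, Pdk1 and G6pdx). From the lists of other genes and regulators, up to 6 called genes each were named, with Hif1a, Myc and Txnip. Alternatives were other pseudocounts, filters, scalings, weights and sample sets, and each library left out in turn.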

Additional observations from a re-analysis of the deposited data

Results flagged for a closer look

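Within groups of 5 libraries, the gap of the lowest or highest library to its nearest other was measured on the log2(FPKM + 1) scale. In 6 of 136 gene and group combinations of the tested members (4.41%) it exceeded 0.71 of the group's range, which chance gives in about 1 in 20. Levels below are in FPKM and gaps are on the log2 scale. ABL503 1 was high for Pgk1, at 329 FPKM beside 251 to 258, with a gap of 0.898 of the range. ABL503 3 was high for Pfkl, at 14.7 FPKM beside 5.59 to 6.69 (0.821), and for Pgd, at 14.6 FPKM beside 6.50 to 8.10 (0.737). Combination 1 was high for G6pdx, at 17.8 FPKM beside 11.1 to 12.2 (0.801). Combination 4 was low for Pdha1, at 22.2 FPKM beside 28.2 to 30.2 (0.773). Control 2 was low for Rpia, at 0.643 FPKM beside 1.62 to 1.91 (0.818).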

How the results depend on the processing

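Of the 40 calls of members, 27 were kept under every alternative and 13 were lost under some, and none changed direction. All 15 calls in Combination against Control were kept, as were 7 of 10 in Pembrolizumab against Control, 5 of 10 in Combination against ABL503, and 0 of the 2 in ABL503 against Control and the 3 in ABL503 against Pembrolizumab. The 2 calls in ABL503 against Control became 0 with no filter on low values, 4 with quantile normalization, 4 with libraries rescaled to an equal sum, 1 with array weights, and 0 without Control 1 and ABL503 3, a pair chosen after seeing the data. The 10 in Combination against ABL503 became 5 with no filter. The 3 in ABL503 against Pembrolizumab became 1 with no filter, 1 with quantile normalization, 1 with only the groups compared, and 1 without Control 1 and ABL503 3. With no filter 31149 genes shared both the fit and the adjustment, and the cause of these changes was not tested for any setting. Leaving out each replicate in turn gave 8 to 11 calls in Pembrolizumab against Control, 0 to 4 in ABL503 against Control, 15 to 16 in Combination against Control, 6 to 10 in Combination against ABL503, 0 to 3 in ABL503 against Pembrolizumab, and 0 in Combination against Pembrolizumab and in the interaction. The members' median changes moved by less than 0.0912 in all 135 alternatives. That value is the within-group SD of the members' median in single libraries. It is not the spread of a difference between groups of 5, so it is a loose limit, and it is large beside some of the changes. The median of 0.11 in ABL503 against Control became 0.07 with array weights and 0.17 without Control 3 or without ABL503 4, and the 0.23 in Combination against ABL503 became 0.15 without ABL503 5. The median ranged from -0.12 to -0.0026 in ABL503 against Pembrolizumab and from -0.01 to 0.07 in the interaction. Scaling shifted the median of all genes by at most 0.04.

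Over all genes, the calls without the filter were 321, 42, 939, 3, 271, 67 and 6, and with array weights 685, 63, 1378, 85, 935, 301 and 50, in the order Pembrolizumab, ABL503 and Combination against Control, Combination against Pembrolizumab and ABL503, ABL503 against Pembrolizumab, and interaction. They compare with 655, 73, 1484, 19, 534, 151 and 24. With only the groups compared, there were 395, 60, 993, 3, 379 and 111. Fitting a block for the shared replicate number, the members called numbered 10, 2, 15, 0, 10, 2 and 0. The numbers were not taken as pairing: deviations of same-numbered libraries correlated from -0.15 to 0.11 (median 0.03) over 30 pairs, 2 of them over 0.1. Depth is unknown, so counting error is not separated from other spread.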

Other observations

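Near copies of members were in the table as symbols of their own. Eno1b, a copy of the enolase gene, had 32.4 ± 3.81 FPKM in Control (SD, n = 5), 53.2 ± 9.99 in Pembrolizumab, 40.2 ± 6.04 in ABL503 and 59.5 ± 12.4 in Combination. It was called higher over Control in Pembrolizumab, by 0.69 on the log2 scale, and in Combination, by 0.84. Pgk1-rs7 had 17.4 ± 2.28, 30.8 ± 3.73, 24.8 ± 3.14 and 34.5 ± 7.72 FPKM, and Pgam1-ps2 had 44.02 ± 4.97, 49.5 ± 7.5998, 49.3 ± 6.41 and 61.3 ± 9.03 FPKM, in the same group order. The order of the group means was that of Eno1 and of Pgk1 for the first and second copy. Whether reads of the members were divided with the copies was not tested.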
